A study of Mus musculus with 16 samples.

Results

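The replication-dependent histone genes encode the bulk of the H1, H2A, H2B, H3 and H4 proteins that package newly copied DNA. They were taken as the symbols that begin with Hist1h to Hist4h and had at least 20 UMIs summed over the 16 libraries, which kept 58 of 68 matching symbols among 24469 gene symbols. The 58 genes were 5 of family H1, 15 of H2A, 16 of H2B, 10 of H3 and 12 of H4. Together they held 188413 of 341916535 UMIs. The 10 matching symbols left out included Hist1h4n with 7 UMIs and Hist1h1t with 4, and 6 of them had 0 UMIs, whereas the kept genes with the fewest UMIs were Hist1h2aa with 103 and Hist1h2bl with 106.

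Single-cell RNA was sequenced from 8-week-old female C57BL/6 mice, Aire+/+ or Aire-/- littermates, that carried subcutaneous MC38 colon adenocarcinoma tumors. Anti-PD1 or isotype antibody (5 mg/kg) was injected on day 0, day 3, day 7, day 10 and day 14, with harvest of tumors and spleens on day 19. Tumors of 4 to 6 mice per condition were pooled, as were the spleens, and CD8+ T cells or CD45+ cells were sorted from each pool. Each of the 4 conditions therefore had 1 library per tissue and sort, and the 4 values below are always in the order Aire+/+ isotype, Aire+/+ anti-PD1, Aire-/- isotype, Aire-/- anti-PD1.

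Most mRNAs of these genes carry no poly(A) tail and end in a short stem-loop that the protein Slbp binds, and they are made and kept while DNA is being copied. A small number of the genes are also known to give polyadenylated mRNA in cells that do not divide, among them Hist1h1c, Hist1h2bc, Hist1h2ac and Hist2h2be. A method that captures RNA by its poly(A) tail therefore sees an unknown fraction of their transcripts, so levels below are of captured RNA. Aire regulates gene expression in the thymus, by which self-reactive T cells are removed, and PD1 is an inhibitory receptor of T cells.

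The knockout target was too rare to check the genotype labels: Aire had 6, 3, 1 and 0 UMIs in the CD8 tumor libraries, 0, 0, 0 and 0 in CD8 spleen, 0, 2, 1 and 0 in CD45 tumor and 2, 5, 4 and 0 in CD45 spleen. The sort labels were checked against marker genes. Cd8a or Cd8b1 was seen in 99.1, 99.1, 98.8 and 99.5% of cells of the CD8 tumor libraries and 99.4, 99.1, 99.3 and 98.9% of CD8 spleen, against 6.21, 10.9, 13.4 and 38.0% of CD45 tumor and 8.21, 8.62, 8.80 and 9.24% of CD45 spleen. The Aire-/- anti-PD1 library of the CD45 tumor sort held the most such cells of its sort. Of 36727 different barcodes, 868 occurred in 2 or more libraries, and the 120 pairs of libraries shared 2 to 18 (median 7).

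Summed over all cells of a library, captured histone RNA was highest in the CD8+ cells of the tumor. Summed over the 58 genes, UMIs per 1000000 UMIs of the library (CPM) were 878, 863, 784 and 787 in CD8 tumor and 273, 267, 481 and 412 in CD8 spleen. They were 398, 411, 328 and 480.1 in CD45 tumor and 537, 538, 519.6 and 677 in CD45 spleen. In the CD8 sort each tumor library lay above each spleen library. For the CD45 sort the order was reversed and the ranges did not overlap either. The median CPM of single cells was 339, 261, 252 and 262 in CD8 tumor and 334, 352, 349 and 503 in CD45 spleen. By that measure CD45 spleen was higher in each condition but Aire+/+ isotype. The Aire-/- anti-PD1 library of CD45 spleen stood above the other 3 of its group; the mean of the group was 568, and each of those 3 was also above each CD45 tumor library.

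As counts, not per length, H1 genes gave the most captured UMIs (64598), followed by H2B (40459), H2A (36265), H4 (32124) and H3 (14967). The linker histone gene Hist1h1e alone had 27026 and Hist1h1c 16180, ahead of the H2A gene Hist1h2ae with 13502. In CPM, H1 reached 344, 298, 279.7 and 299.9 in the CD8 tumor libraries and 89.4, 91.8, 128 and 135 in CD8 spleen. H4 genes, which encode a single core protein, reached 120.4, 129, 102 and 107 and 72.5, 68.0, 100.2 and 93.3. The H1 ranges of the tissues lay well apart, and the H4 ranges lay close together without overlap. Many of these genes are near-identical copies, so the split between them depends on how the authors' counting treated shared reads.

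Most cells of each library carried at least 1 histone UMI. The share was 90.4, 86.3, 84.9 and 83.6% in CD8 tumor and 71.6, 69.9, 71.4 and 75.6% in CD8 spleen, and 87.5, 81.8, 81.8 and 80.0% in CD45 tumor and 79.8, 79.0, 80.3 and 87.4% in CD45 spleen. Tumor cells had more UMIs, with medians per cell of 11163.5, 10349, 10198.5 and 8883 against 6405, 6304.5, 6282 and 5801 in the CD8 sort and 11892, 11858.5, 12251.5 and 9889 against 4549, 4413.5, 4733 and 4502 in the CD45 sort.

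With each cell thinned to 2000 UMIs, histone RNA was found in 53.5, 47.5, 45.3 and 45.7% of CD8 tumor cells and 37.6, 37.3, 38.0 and 45.0% of CD8 spleen cells. The thinned shares of the CD45 sort were 43.7, 38.5, 36.6 and 38.8% in tumor and 53.2, 55.4, 52.8 and 66.3% in spleen. Thinning left out 0, 36, 18 and 26 cells below that depth in CD8 spleen and 31, 85, 31 and 25 in CD45 spleen, and 0 in the tumor libraries. The thinned share was higher in CD8 tumor than in CD8 spleen in 4 of 4 conditions, by 8.49 percentage points on average (SD 6.34). The differences were 15.9, 10.1, 7.22 and 0.67 points, so Aire-/- anti-PD1 showed almost none. Among CD45 cells it was lower in tumor in 4 of 4 conditions, by a mean difference of -17.5 points.

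As summed CPM, cycling cells, defined by at least 1 UMI of Mki67 or Top2a, carried more histone RNA. They made up 42.5, 36.9, 36.6 and 33.4% of CD8 tumor cells, 3.42, 2.45, 4.40 and 3.46% of CD8 spleen, 15.9, 17.8, 17.3 and 20.2% of CD45 tumor and 4.49, 3.98, 3.06 and 3.59% of CD45 spleen. Summed histone CPM in cycling cells were 1265, 1425, 1280.0 and 1367 in CD8 tumor and 658, 1032, 3736 and 2006 in CD8 spleen. In non-cycling cells they were 426, 345, 300.3 and 318 and 252, 242, 245 and 314. The ranges of the states did not overlap in either tissue, and the Aire-/- isotype library stood highest among cycling spleen cells. The median CPM of single cells differed less between the states. It was 397, 331, 305 and 336 in cycling and 301, 235, 229 and 239 in non-cycling CD8 tumor cells. In CD8 spleen the medians were 239, 248, 447 and 400 against 190, 176, 182 and 245.

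Among CD45 cells, summed histone RNA of cycling cells was 645, 927, 609 and 1029 in tumor and 1186, 1348, 1785 and 1579 in spleen, against 329, 252, 246 and 258 and 478, 483, 456 and 608 in non-cycling cells. Again no ranges of these sums overlapped between the states within a tissue. By the median CPM of single cells, cycling cells of CD45 spleen had 450, 395, 427 and 387. Non-cycling cells there had 329, 350, 346 and 508, so the cycling cells were lower in Aire-/- anti-PD1. In CD45 tumor the medians were 280, 266, 270 and 264 against 241, 183, 175 and 189. With cells thinned to 2000 UMIs and cycling set anew on the thinned cells, which left 479, 322, 265 and 304 cycling cells in CD8 tumor and 33, 26, 48 and 38 in CD8 spleen, the share with histone RNA averaged 67.9% of cycling and 44.5% of non-cycling cells in CD8 tumor, and 59.7% and 39.2% in CD8 spleen. The averages of the CD45 sort, set the same way, were 61.9% and 38.1% in tumor and 63.4% and 56.8% in spleen. Without thinning, with the larger set of cycling cells and more UMIs in them, they were 91.7% and 83.2% in CD8 tumor and 82.99% and 71.8% in CD8 spleen.

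**Figure D1:**
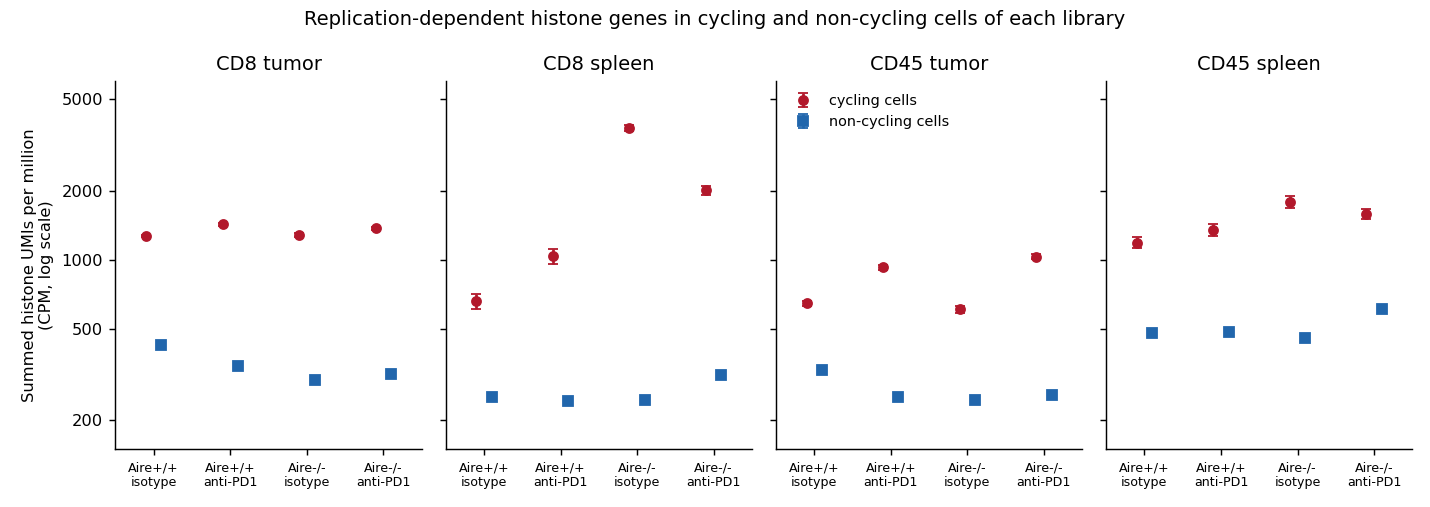
Summed CPM of the 58 histone genes in cycling and non-cycling cells of each library. Bars are exact Poisson 95% intervals and hold counting error only.

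Much of the histone RNA was held by a small set of cells. The 1% of cells with the highest histone CPM held 14.7, 23.3, 21.8 and 21.8% of all histone UMIs in CD8 tumor, and these cells were all cycling. In CD8 spleen they held 8.87, 13.01, 48.3 and 26.0%, and 31.0, 17.2, 78.3 and 50% of them were cycling. A median of 29, 35, 34 and 31.5 of the 58 genes was detected in each of these CD8 tumor cells, against 3, 2, 2 and 2 in all cells. The Aire-/- isotype library stood above the other CD8 spleen libraries, and its 23 cells with most histone RNA carried a median of 33 of the genes.

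Among CD45 cells the top 1% held 13.5, 29.7, 15.6 and 30.8% of histone UMIs in tumor and 13.7, 15.8, 18.0 and 16.1% in spleen. For a list of DNA replication genes, the 1% of cells with most of that list held 6.21, 7.90, 7.11 and 5.93% of its UMIs in CD8 tumor and 16.2, 11.6, 26.4 and 24.5% in CD8 spleen. The histone share was larger than that in each CD8 tumor library, and in CD8 spleen it was larger in 3 of 4 libraries and smaller in Aire+/+ isotype. In CD45 tumor and CD45 spleen the replication list gave 18.6, 17.7, 17.3 and 14.4% and 30.6, 21.1, 22.1 and 22.4%; the histone share was larger in 2 of 4 libraries of CD45 tumor and smaller in 4 of 4 of CD45 spleen. For the replacement histone genes the share in CD8 tumor was 3.63, 3.70, 3.64 and 3.05%, below the histone share in each library.

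**Figure D2:**
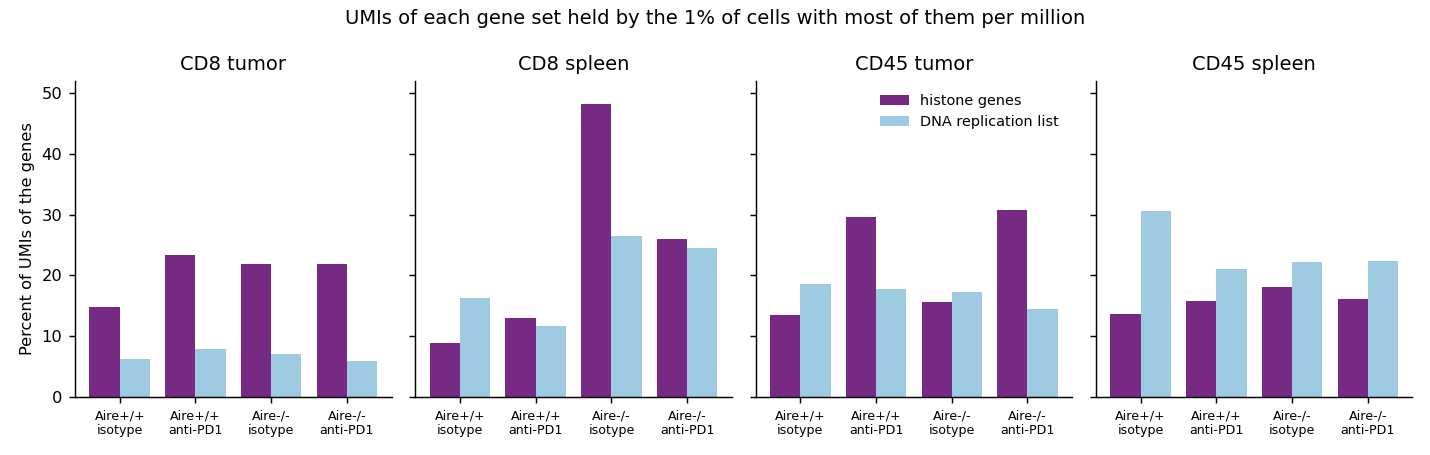
Percent of the UMIs of the histone genes, and of the DNA replication list, held by the 1% of cells of each library with the most CPM of that set.

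Cells were also split by DNA replication and mitosis genes, and those positive for both had the highest summed histone CPM. In CD8 tumor such cells were 11.9% of cells and held 67.5% of histone UMIs, at a mean of 2597 CPM. Cells positive for replication genes only, 55.7% of cells, had 333, cells positive for mitosis genes only 839.6 and cells with neither 349. Of the replication-only cells 43.0, 35.7, 36.0 and 33.0% had a UMI of Mki67 or Top2a. The replication gate passed 69.9, 69.7, 66.6 and 64.5% of CD8 tumor cells and 47.6, 43.6, 46.1 and 45.1% of CD8 spleen cells. Those shares are well above the shares of cycling cells, so at full depth this gate does not single out dividing cells. In CD8 spleen, CD45 tumor and CD45 spleen the cells positive for both had 3490.2, 1395 and 3132 CPM. They held 23.4, 38.5 and 13.5% of histone UMIs there, and cells with neither held 39.1, 29.1 and 59.6%. In CD8 spleen the libraries gave 8.27, 10.1, 50.8 and 24.4%, and the mean was 14.3% without Aire-/- isotype. By the median CPM of single cells, CD45 tumor Aire+/+ isotype had 440 for both and 551 for mitosis only. In CD45 spleen Aire-/- isotype these medians were 539 and 715. In the other libraries cells positive for both also had the highest median. The gates depend on depth: with CD8 tumor cells thinned to 2000 UMIs, those positive for both held 26.4% and those with neither 43.3% of histone UMIs. The thinned levels were 4532 CPM for both, 2034 for mitosis only, 690.1 for replication only and 369 for neither.

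Gene by gene, cycling and non-cycling cells of the same library were compared with edgeR's quasi-likelihood test, paired by library, with Benjamini-Hochberg adjustment over all genes tested. In CD8 tumor 52 of 58 histone genes were higher in cycling cells and 0 lower, where 17.0% of 12400 genes were higher and 2165 genes lower; 53 had an unadjusted p under 0.05, and the DESeq2 Wald test gave 51 and 0. In CD8 spleen 51 of 58 were higher and 0 lower, where 14% of all genes were higher and 1829 genes lower; 52 had an unadjusted p under 0.05, and DESeq2 gave 50 and 0. The medians of the histone genes were 2.56 and 3.45 on the log2 scale, against -0.02 and -0.06 over all genes. In the CD45 sort 45 of 58 were higher and 1 lower in tumor, beside 17.0% of 12707 genes higher and 3721 genes lower, with a median of 1.94 against -0.08 over all genes. In CD45 spleen 36 of 58 were higher, beside 11.4%, with a median of 1.68 against -0.05. The 6 histone genes not called in CD8 tumor were Hist1h1c, Hist2h2be, Hist3h2a, Hist3h2ba, Hist3h2bb-ps and Hist4h4.

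The counts in spleen changed with the choice of cells. Without cells above the 95th percentile of UMIs the higher genes were 23 in CD8 spleen and 0 in CD45 spleen (edgeR, with 4 at an unadjusted p under 0.05), and with DNA replication genes as the gate in place of Mki67 or Top2a they were 23 and 19. The replication gate passed 28.8, 26.0, 30.1 and 29.4% of CD45 spleen cells and a still larger share of CD8 spleen cells. It therefore split the spleen cells differently from Mki67 or Top2a. With cells thinned to 2000 UMIs CD45 spleen had 13.

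Among the H1 linker histones, 4 of 5 were higher in cycling CD8 tumor cells. Hist1h1b, a linker histone of dividing cells, had 141, 161, 138 and 169.6 CPM in cycling and 7.10, 7.60, 5.29 and 7.15 in non-cycling CD8 tumor cells, and 20.3, 78.9, 340.5 and 156 and 0.314, 0.485, 1.03 and 2.35 in CD8 spleen. The states did not overlap in either tissue. By edgeR quasi-likelihood it rose by 4.47 (SE 0.141, Benjamini-Hochberg adjusted p = 3.90e-11) in CD8 tumor, higher in 4 of 4 libraries, and by 6.80 in CD8 spleen.

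Hist1h1c, the linker gene also known as polyadenylated mRNA, had 95.2, 65.4, 65.0 and 69.0 in cycling and 94.2, 59.1, 48.0 and 52.5 in non-cycling CD8 tumor cells. These ranges overlapped, and the log2 difference of 0.22 was not called. In CD8 spleen the values were 30.9, 53.1, 98.4 and 53.2 against 24.9, 26.4, 23.1 and 27.8, without overlap, and the rise of 0.94 was called; the difference between the tissues, -0.72, was not. Hist1h1e, the linker gene with most UMIs, had 174, 170.1, 170.3 and 185 against 71.5, 63.3, 65.3 and 72.0 in CD8 tumor, the cycling cells higher throughout, a rise of 1.35. Hist1h1d rose by 2.47 in CD8 tumor and 2.60 in CD8 spleen.

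The H2A genes showed the steepest differences as a family, with a median of 3.83 in CD8 tumor and 4.997 in CD8 spleen. Hist1h2ab, a core H2A gene, had 26.4, 28.2, 34.4 and 33.5 CPM in cycling and 0.926, 0.923, 0.705 and 0.933 in non-cycling CD8 tumor cells. In CD8 spleen it had 14.5, 38.6, 237 and 47.9 and 0.210, 0.108, 0.206 and 0.130, highest in Aire-/- isotype. The states were apart in both tissues, by 5.07 and 8.46. Hist1h2ae, the H2A gene with most UMIs, had 134, 158, 139.9 and 144 against 11.97, 8.23, 8.73 and 12.05 in CD8 tumor, likewise apart, and rose by 3.79; in CD45 tumor and CD45 spleen it rose by 3.16 and 3.06.

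Hist1h2ah, another core H2A gene, was almost absent outside cycling cells, with 327 UMIs in cycling and 2 in non-cycling CD8 tumor cells, a log2 ratio of CPM of 7.38 (95% interval 5.52 to 10.43). In CD8 spleen it had 175 and 3 UMIs, a ratio of 10.07 (8.5 to 12.37). Hist1h2af, likewise a core H2A gene, had 8.18, 10.3, 6.05 and 13.3 CPM in cycling and 0.247, 0.142, 0.264 and 0.233 in non-cycling CD8 tumor cells, apart, and rose by 5.33. Hist1h2ac, also known in polyadenylated form, rose by 2.05 in CD8 tumor. Hist3h2a, an H2A gene outside the main cluster, was lower in cycling cells of CD45 tumor. There it had 17.6, 17.1, 22.1 and 21.4 in cycling and 23.4, 22.6, 33.4 and 20.8 in non-cycling cells, with overlap and with the cycling cells lower in each library but Aire-/- anti-PD1. Its log2 difference was -0.60 (SE 0.121; edgeR quasi-likelihood, Benjamini-Hochberg adjusted p = 0.00111; lower in 3 of 4 libraries). In CD45 spleen its log2 difference was 0.25 and in CD8 tumor 0.19, neither of them called; differences between these sets were not tested.

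Of the H2B genes, 13 of 16 were higher in cycling cells in CD8 tumor and 13 of 16 in CD8 spleen. Hist2h2bb had 46.1, 88.7, 79.3 and 82.7 in cycling and 14.01, 13.8, 15.1 and 17.4 in non-cycling CD8 tumor cells, with no overlap, and rose by 2.25. Hist1h2bc, the H2B gene also known as polyadenylated mRNA, had 64.0, 46.4, 35.8 and 41.2 against 55.2, 34.5, 20.9 and 14.9. Its ranges overlapped across libraries, and within libraries it was higher in cycling cells in 4 of 4, by 0.65 (edgeR quasi-likelihood, Benjamini-Hochberg adjusted p = 0.00523). Hist2h2be had 1.90, 1.85, 1.45 and 1.83 against 2.16, 1.85, 2.47 and 1.63, and Hist3h2ba 6.75, 8.02, 5.87 and 6.73 against 7.65, 6.81, 6.26 and 6.06. Both overlapped between states and were not called, at -0.20 and 0.014.

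All 10 H3 genes were higher in cycling cells in CD8 tumor, CD8 spleen and CD45 tumor, and 8 of 10 in CD45 spleen. Hist1h3e, the H3 gene with most UMIs, had 28.4, 26.3, 40.0 and 27.5 in cycling and 8.08, 5.96, 6.61 and 6.45 in non-cycling CD8 tumor cells, which did not overlap. It rose by 2.13 (edgeR quasi-likelihood, Benjamini-Hochberg adjusted p = 7.18e-06, higher in 4 of 4 libraries), and by 2.19 in CD8 spleen.

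The H4 genes differed least as a family, with a median of 1.49 in CD8 tumor, although 11 of 12 were called. Hist1h4d, the H4 gene with most UMIs, had 41.9, 52.1, 43.7 and 53.3 in cycling and 21.04, 23.6, 20.3 and 21.6 in non-cycling CD8 tumor cells, apart, and rose by 1.12. Hist1h4c rose by 0.63 and Hist1h4i by 1.02. Hist4h4, a lone H4 gene away from the clusters, had 6.86, 6.32, 5.15 and 5.38 against 6.11, 4.19, 6.17 and 3.73, with overlap, and was not called at 0.24. Of the histone UMIs of CD8 tumor, H4 made up 12.2% in cycling and 19.9% in non-cycling cells on average, and H2A 22.9% and 10.7%.

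**Figure D3:**
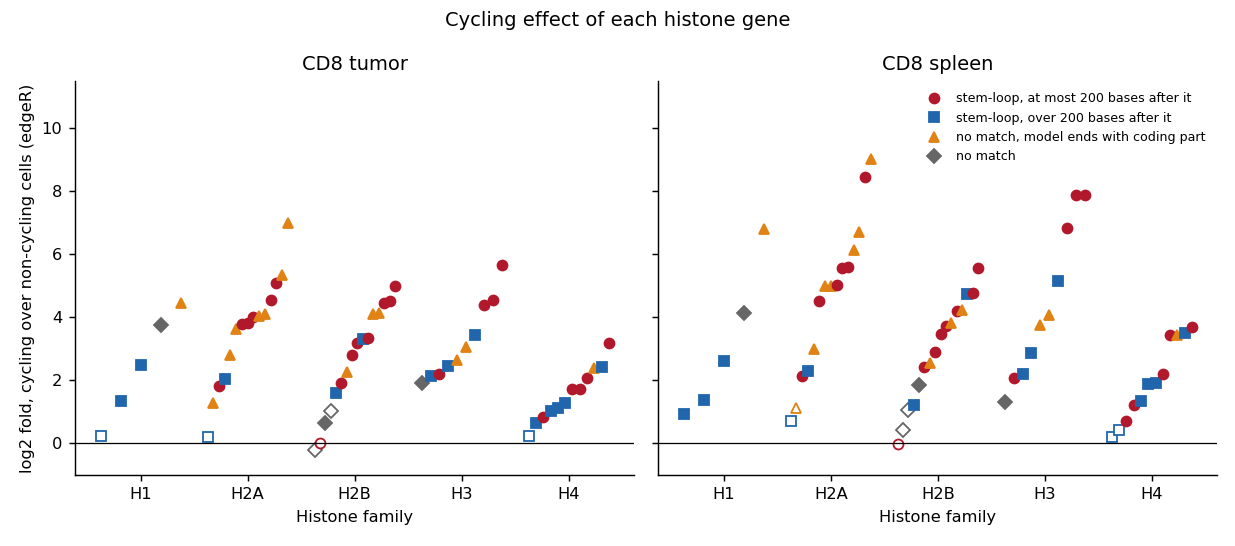
Cycling over non-cycling log2 difference of each histone gene in CD8 tumor and CD8 spleen, by family, from edgeR. Colours give the group of the stem-loop match; filled symbols have an adjusted p under 0.05 and open symbols do not.

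The genes that serve the histone mRNAs and replacement histones were read beside them. Of 17 tested genes of histone transcription and mRNA processing, 13 were higher in cycling CD8 tumor cells and 0 lower, where 2112 of all 12400 genes were higher and 2165 lower, with a median of 0.40. Slbp, which binds the stem-loop, rose by 0.79 and Npat, the activator of histone transcription, by 0.40. The cyclin genes Ccne1 and Ccne2 of the same list rose by 2.12 and 2.98. Of 10 replacement histone genes 6 were higher and 1 lower (median 0.69), with H2afz, a replacement H2A, at 1.35 and H3f3b, a replacement H3, at -0.15 and not called. Of 14 histone chaperone genes 10 were higher and 1 lower (median 0.56). All 22 DNA replication genes (median 2.12) and all 18 mitosis genes (median 5.09) were higher, beside 2.56 for the histone genes.

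Whether the cycling difference itself differed between the tissues was tested in the CD8 sort. By edgeR, 0 histone genes had a larger difference in tumor, beside 7.65% of all genes, and 7 had a smaller one, beside 8.77%; 15 had an unadjusted p under 0.05, and the DESeq2 Wald test also gave 0 larger and 7 smaller. The 7, a share not far above that of all genes, were Hist1h1b (-2.34), Hist1h2ab (-3.39), Hist1h2ag (-1.74), Hist1h2bc (-1.20), Hist1h3c, Hist1h3d (-1.72) and Hist1h4i (-0.88). The fitted size of Hist1h3c is left out here because it is not exact. In CD8 spleen the gene had 51 UMIs in cycling and 2 in non-cycling cells, a log2 ratio of 8.88 (95% interval 6.95 to 11.96). The median was -0.51 over the histone genes and 0.07 over all genes; with DESeq2 size factors the median of all genes moved to -0.04 and the smaller ones numbered 10. For Hist1h1b the edgeR quasi-likelihood test gave a Benjamini-Hochberg adjusted p of 0.000328 (difference -2.34, SE 0.329, lower in tumor in 4 of 4 conditions). The count was 11 without the Aire+/+ isotype libraries and 3 without those of Aire+/+ anti-PD1, of Aire-/- isotype or of Aire-/- anti-PD1. The direction turned with the gate: with DNA replication genes as the gate, 16 histone genes had a larger difference in tumor and 0 a smaller one, and without cells above the 95th percentile of UMIs 10 were larger and 1 smaller. The replication gate passed 47.6, 43.6, 46.1 and 45.1% of CD8 spleen cells, far more than had a UMI of Mki67 or Top2a. Its 2 states are therefore not those of the main test.

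Across all CD8 cells, the tumor and spleen of the same condition were compared the same way. Of 58 histone genes 34 were higher in tumor, where 36.7% of 12262 genes were, and 2 were lower, where 38.0% were. The median was 1.19 for the histone genes and -0.02 for all genes. By family the higher genes were 5 of 5 H1, 8 of 15 H2A, 9 of 16 H2B, 8 of 10 H3 and 4 of 12 H4.

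Hist1h1b had 79.3, 81.2, 70.8 and 79.8 CPM in tumor and 1.34, 3.03, 24.1 and 11.2 in spleen, apart, and was higher in tumor by 3.27 (SE 0.600; edgeR quasi-likelihood, Benjamini-Hochberg adjusted p = 0.00214; 4 of 4 conditions). Hist1h1c had 94.7, 62.1, 56.4 and 59.9 against 25.2, 27.3, 28.2 and 29.3, also apart, a difference of 1.19. Hist1h1e had 126, 114, 117 and 123 against 50.5, 48.3, 54.8 and 71.9, apart, a difference of 1.01. The H2A genes Hist1h2ae and Hist1h2ag were higher by 2.53 and 2.58.

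Of the H2B genes, Hist1h2bc had 60.0, 40.2, 28.2 and 26.7 in tumor and 6.91, 4.38, 6.67 and 7.06 in spleen, apart, and was higher by 2.497 (SE 0.217; edgeR quasi-likelihood, Benjamini-Hochberg adjusted p = 5.67e-05; 4 of 4 conditions). Hist2h2be had 2.02, 1.85, 1.96 and 1.72 against 3.88, 3.495, 4.11 and 5.65, lower in tumor without overlap, a difference of -1.25. Hist1h3e, of H3, was higher by 0.87 and Hist1h4d, of H4, by 1.10. Hist4h4 had 6.51, 5.21, 5.67 and 4.47 against 9.19, 8.504, 8.66 and 11.7, again lower in tumor without overlap (-0.89), so the 2 lower genes were also among those not called with cycling in CD8 tumor. The H2B pseudogene Hist3h2bb-ps stood at -0.89 and was not called.

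Among non-cycling CD8 cells the histone genes were called in both directions. Of 43 histone genes tested 9 were higher in tumor, beside 35.5% of 11789 genes, and 13 were lower, beside 37.0%, with medians of -0.03 for both. Summed over the 58 genes, the tumor to spleen log2 ratios of the 4 conditions averaged 1.25 in all cells and 0.39 in non-cycling cells (0.75, 0.51, 0.30 and 0.015). The 9 higher genes were Hist1h1b, Hist1h1c, Hist1h1e, Hist1h2ab, Hist1h2ae, Hist1h2ag, Hist1h2bc, Hist1h4d and Hist2h2bb. Hist1h2bc kept a difference of 2.40, with 55.2, 34.5, 20.9 and 14.9 in tumor and 5.40, 4.10, 5.30 and 6.45 in spleen, apart. Hist1h1c likewise kept 1.20. On the lower side stood Hist3h2bb-ps at -1.35, Hist1h2ac at -1.25, Hist2h2be at -1.08, Hist4h4 at -0.95 and Hist1h4c at -0.51.

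Among cycling CD8 cells 1 of 58 histone genes was higher in tumor, Hist1h2bc at 1.14, beside 16.6% of 10994 genes, and 7 were lower, beside 13.3%. Those 7, no larger a share than that of all genes, were Hist1h2ac (-1.51), Hist1h2ak (-1.11), Hist1h2bg (-0.93), Hist1h3d (-1.11), Hist1h4j (-1.51), Hist2h2be (-1.78) and Hist4h4 (-0.99). Without the Aire+/+ isotype libraries 1 was higher and 23 lower, without Aire+/+ anti-PD1 1 and 9, without Aire-/- isotype 4 and 2, and without Aire-/- anti-PD1 1 and 1, so the larger side turned without Aire-/- isotype. The number called in either direction was 2 with thinned cells, 25 with at least 2 UMIs in the gate and 31 with DNA replication genes as the gate.

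In the CD45 sort, which held different cell types in tumor and spleen, 5 of 55 histone genes tested were higher in tumor, beside 34.9% of 12735 genes, and 24 lower, beside 36.9%. The median was -0.42, against -0.05 over all genes. Hist1h1d, a linker histone, had 9.79, 11.9, 6.86 and 13.6 in tumor and 29.8, 29.2, 25.1 and 32.5 in spleen, apart, a log2 difference of -1.27 (SE 0.119; edgeR quasi-likelihood, Benjamini-Hochberg adjusted p = 0.000117; 4 of 4 conditions). Hist1h1c had 52.3, 41.0, 34.3 and 47.3 against 27.0, 31.1, 29.0 and 31.9, higher in tumor without overlap (0.78). Hist1h2ac (-1.89), Hist1h3e (-1.29), Hist1h4c (-1.29) and Hist2h2be (-1.72) were lower. The other higher genes were Hist1h1b (0.49), Hist1h2ae (0.68), Hist1h3c (1.11) and Hist3h2a (0.59), Hist1h1b and Hist1h3c in 3 of 4 conditions. The higher genes numbered 3 without the Aire+/+ anti-PD1 libraries and 3 without those of Aire-/- isotype.

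Across all CD8 cells 8 of 17 processing genes were higher and 5 lower in tumor, where 36.7% and 38.0% of all genes were (median -0.093), with Slbp at 0.97. Of 10 replacement histone genes 7 were higher and 2 lower (median 0.70), with H1f0, the replacement linker histone of resting cells, at 3.96, and at 4.19 among non-cycling cells.

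Cell types were named from marker genes after clustering, and the names were rebuilt here. In the CD45 sort, non-cycling spleen cells had mean summed histone CPM over libraries of 981 (lowest 813, highest 1363) in neutrophil-like, 878 (727 to 1034) in NK-like and 739 (678 to 816) in Ear2-led monocyte-like cells. B-like cells had 531 and naive T-like cells 346. In tumor the means were: NK-like 395 (325 to 535), regulatory T-like 361, activated CD8 T-like 355, macrophage-like 239.6 and neutrophil-like 265. The NK-like and neutrophil-like ranges of tumor and spleen did not overlap. By marker gates, non-cycling NK cells had 924 (782 to 1024, 231 cells) in spleen and 394 (326 to 529, 472 cells) in tumor, from 4 libraries each. Gated neutrophils counted in only 1 spleen library (22 cells, 1338) and 2 tumor libraries (43 cells, mean 264), so that gate gives no spleen range. Spleen cells were also shallower, and the effect of depth on which cells counted as non-cycling was not tested.

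Histone RNA was found in 77.5% of the neutrophil-like spleen cells and 54.6% of those in tumor, at mean median depths of 3179 and 4633.5 UMIs. How much of it was RNA free in the suspension was not tested. At the finer clustering the NK-like cells formed separate clusters, Gzmc-led in tumor with 378 and Klra23-led in spleen with 881.

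**Figure D4:**
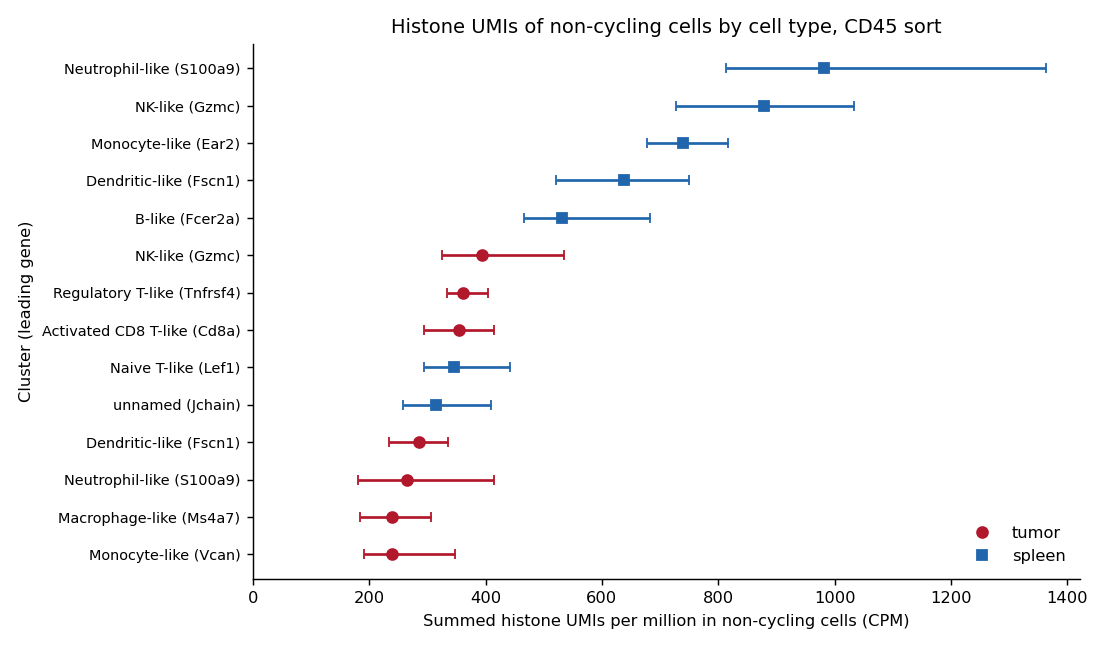
Summed histone CPM in non-cycling cells of the CD45 clusters present in at least 3 libraries, as means over libraries. Bars run from the lowest to the highest library.

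The NK-like difference rested on H1 genes among others: Hist1h1e averaged 249.6 in non-cycling NK-like cells of spleen and 90.3 in tumor, and Hist1h1d 75.1 and 12.3. Hist1h2bc went the other way, with 10.7 in spleen and 49.1 in tumor. In the spleen Hist1h2bc reached 32.9 in B-like and 97.5 in neutrophil-like cells. Hist3h2a, lower with cycling in CD45 tumor, averaged 28.5 in macrophage-like and 12.5 in NK-like tumor cells, of which 15.2% and 31.5% were cycling. What part this mix had in its lower level was not tested.

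In the CD8 sort, the Klrg1-led spleen cluster had the most histone RNA of the spleen clusters, with a mean of 1380.1 (580.1 to 2467) in all and 476 in non-cycling cells, and 17.0% of its cells were cycling. The Ccl1-led tumor cluster had 761 and 353. Of the Aire-/- isotype spleen cells with most histone RNA, 18 of 23 belonged to the Klrg1-led cluster, as did 19 of 26 in Aire-/- anti-PD1, 7 of 29 in Aire+/+ isotype and 11 of 29 in Aire+/+ anti-PD1. That cluster made up 4.18, 3.53, 10.6 and 9.47% of all CD8 spleen cells.

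Conditions had 1 library each per tissue and sort, so their ratios carry exact conditional 95% intervals of counting error and no test. In CD8 spleen summed histone RNA was higher in Aire-/- than Aire+/+ under isotype by a log2 ratio of 0.82 (0.77 to 0.87), and 35 of 52 histone genes were at least 1.5-fold higher, beside 5.66% of all genes (medians 0.88 and 0.01). Under anti-PD1 it was 0.63 (0.57 to 0.68), with 32 of 48 genes higher, beside 7.51% (medians 0.82 and 0.08). The isotype difference sat in few cells: it was 2.51 in cycling cells, -0.045 in non-cycling cells and 0.017 without the 1% of cells with most histone RNA. The anti-PD1 difference was 0.38 in non-cycling cells and 0.41 without those cells. The Klrg1-led cluster, rich in histone RNA, was also a larger share of the Aire-/- spleen libraries (10.6 and 9.47% against 4.18 and 3.53%), and its part in these ratios was not tested. Anti-PD1 over isotype in Aire-/- CD8 spleen was -0.22 (-0.27 to -0.18). There 18 of 53 histone genes were at least 1.5-fold lower, beside 2.93% of all genes. The ratio turned to 0.36 in non-cycling cells and to 0.29 without the 1% of cells with most histone RNA.

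In CD8 tumor the knockout libraries were lower, at a log2 ratio of -0.16 (-0.19 to -0.14) under isotype, with 10 of 57 histone genes at least 1.5-fold lower, beside 6.70% of all genes. Under anti-PD1 the ratio was -0.13 and 11 of 58 genes were lower, beside 6.12%. The isotype difference was -0.50 in non-cycling and 0.017 in cycling cells. Hist1h2bc was among the genes that differed, at -1.09 under isotype.

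In CD45 tumor anti-PD1 over isotype gave 0.55 (0.51 to 0.59) in Aire-/-, with 32 of 52 histone genes at least 1.5-fold higher, beside 17.0% of all genes (medians 0.89 and 0.11). In Aire+/+ the ratio was 0.048 with 15 of 55 genes higher, beside 5.16%, and it turned to -0.39 in non-cycling cells. In Aire-/- the non-cycling ratio was 0.069. The Aire-/- anti-PD1 library also held the largest share of T cells of its group, and the part of that in its histone level was not tested. In CD45 spleen the Aire-/- anti-PD1 library was higher than Aire+/+ anti-PD1 by 0.33, with 19 of 51 histone genes higher, beside 4.39%, and higher than Aire-/- isotype by 0.38, with 17 of 52 higher, beside 4.32%.

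The genes were also read for the stem-loop that ends these mRNAs, in the GENCODE transcripts of GRCm38. A match was found in 39 of 58 genes, and 21 of them shared the same 16 bases. In 23 genes the annotated transcript ended within 200 bases after it, with a median cycling over non-cycling log2 ratio of 3.42 and 0.777 CPM in non-cycling cells of CD8 tumor. In 16 genes the annotation ran on for more than 200 bases, with medians of 1.497 and 5.91. These groups follow GENCODE ends, whereas the authors counted on a RefSeq gene model, whose ends can differ. The median ratio was 2.58 over all 58. Of the other genes, 14 had models that end with the coding part and 5 had no match. Their median ratios were 3.87 and 1.08, with 0.841 and 2.03 CPM in non-cycling cells. The 2 groups with a match overlapped, with ratios of 0.031 to 6.37 in the first and 0.216 to 3.47 in the second. Both of these groups held genes not called with cycling in CD8 tumor: Hist3h2ba in the first, and Hist1h1c, Hist3h2a and Hist4h4 in the second. A called and an uncalled gene of each group are shown, chosen after their values were seen, to compare the sites themselves; capitals mark the stem-loop, 5′ to 3′.
Hist1h2ab: aaacaaaGGCTCTTTTCAGAGCCacccaca
Hist3h2ba: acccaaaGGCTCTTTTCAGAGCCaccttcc
Hist1h3d: ccccaaaGGCTCTTTTCAGAGCCacccccg
Hist1h1c: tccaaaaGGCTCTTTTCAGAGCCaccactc
The site of Hist1h2ab (called), at chr13:23751565-23751594 (+), had 11 annotated bases after it and that of Hist3h2ba (not called), at chr11:58949342-58949371 (+), 169. Those of Hist1h3d (called), at chr13:23576237-23576266 (+), and Hist1h1c (not called), at chr13:23739505-23739534 (+), had 752 and 840. These bases are in the GENCODE models. The RefSeq models ended at 23576266 for Hist1h3d and 23739531 for Hist1h1c, not past the bases shown. The 4 sites hold the same 16-base stem-loop, and transcript ends were not measured.

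Promoter motifs were counted on both strands in the 300 bases of RefSeq GRCm38.p6 promoters, which could be matched to 52 of 58 histone genes. CCAAT was found in 44 of them (84.6%, against 37.4% of all 32851 promoters) and TATAAA in 32 (61.5%, against 13.6%). ATGCAAAT was found in 13 (25%, against 1.74%), 7 of H2A and 6 of H2B genes, and AAACACA in 7 (13.5%, against 7.18%), 4 of them H1 genes. Neighbouring H2A and H2B genes on opposite strands can share part of these windows, so a site can be counted for both. For example, the 120 bases before the start overlap for Hist1h2ae (chr13:23571221-23571340, -) and Hist1h2bg (chr13:23571280-23571399, +). The counts are therefore of genes, not of separate sites. A pair of H1 promoters is shown because Hist1h1b differed most and Hist1h1c least with cycling among the H1 genes of CD8 tumor; capitals mark these motifs, on either strand.
Hist1h1b: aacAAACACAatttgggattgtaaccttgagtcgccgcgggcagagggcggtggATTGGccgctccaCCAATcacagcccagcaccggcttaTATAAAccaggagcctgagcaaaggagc
Hist1h1c: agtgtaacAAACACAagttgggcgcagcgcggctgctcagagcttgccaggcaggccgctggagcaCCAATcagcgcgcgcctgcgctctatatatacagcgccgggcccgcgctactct
The Hist1h1b promoter is at chr13:21780626-21780745 (-) and that of Hist1h1c at chr13:23738687-23738806 (+). Both hold AAACACA as well as the CCAAT motif, and TATAAA was found in that of Hist1h1b only.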

How the data were processed

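RNA of single cells from 16 libraries was analysed, 4 conditions in each of CD8 tumor, CD8 spleen, CD45 tumor and CD45 spleen. The authors deposited a count of UMIs per gene and cell barcode for each library, aligned to GRCm38 per the labels. The labels name a 3′ kit. The text on the experiment names both, 3′ for single-cell RNA and 5′ where T cell receptors were also sequenced. The end of the transcripts that was read is therefore not certain. The authors counted with Cell Ranger on a RefSeq gene model. Rows of the same symbol were summed and vector rows left out.

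Cells with at least 200 genes and at most 20% mitochondrial UMIs were kept, and doublets were not removed. Cells with at least 1 UMI of Mki67 or Top2a were called cycling. The histone genes, the gene lists and the comparisons were chosen with earlier results of these data known. The lists were histone transcription and mRNA processing, replacement histones, histone chaperones, DNA replication and mitosis genes. The gates used shorter sets, with at least 2 UMIs over the set. The replication gate took Mcm2, Mcm3, Mcm4, Mcm5, Mcm6, Mcm7, Pcna, Cdc6 and Rrm2, with Ccne1 and Ccne2 from the processing list. The mitosis gate took Ccnb1, Ccnb2, Cdc20, Plk1, Aurka, Cenpe, Cenpf, Ube2c and Hmmr.

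Levels are UMIs per 1000000 UMIs of the same cells (CPM). Shares of cells were computed as deposited and after drawing 2000 UMIs from each cell at random without replacement, with shallower cells left out and cycling set again on the thinned cells. Clusters were made per sort with Leiden (leidenalg 0.10.2, igraph 0.11.9) at resolution 0.4 from 1000 variable genes, 15 principal components and 30 neighbours, and named where at least 3 markers of a class were detected in a cluster; names are rebuilt, and clusters without a name are called by their leading gene. A cluster counted in a library with at least 20 cells.

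UMIs were summed per library and state and tested with edgeR 4.0.16 (R 4.3.3; TMM scaling, filterByExpr, quasi-likelihood F-test, Benjamini-Hochberg at 0.05). State tests were blocked by library, and the tissue tests had a term for condition, with 3 residual degrees of freedom. The pipeline was tested on simulated data. Intervals are Clopper-Pearson for shares, exact Poisson for counts and exact conditional for ratios, at 95%. Cycling ratios of named genes with 3 or fewer UMIs in a state were taken from counts; a group at 0 was set to 3 counts over the group. Between conditions, genes with at least 20 UMIs over a pair were counted past 1.5-fold.

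The text names the 12 histone genes with most UMIs, those with the 3 largest and 3 smallest cycling differences in CD8 tumor, those with the 3 largest tissue differences in each direction in the CD8 sort (both among genes with at least 100 UMIs over the CD8 libraries), 4 genes known as polyadenylated mRNA, and chosen genes of the lists. Hist1h2ak, Hist1h2bg, Hist1h3c, Hist1h3d, Hist1h4j, Ccne1 and Ccne2 are outside that rule and were named after their values were seen, as were Hist1h2aa, Hist1h2bl, Hist1h4n and Hist1h1t, named only for their UMIs near the minimum.

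Alternatives were DESeq2 1.42.0 size factors and Wald test, no gene filter, no cell filter, thinned cells, cells above the 95th percentile of UMIs removed, stricter and replication gates, no condition term, each condition left out in turn, other depths, at least 2 histone UMIs, leaving out Hist1h1e, and clusters at resolution 0.8 or marker gates. Sums were made with Python 3.11.15, numpy 2.4.6 and scipy 1.17.1, and figures with matplotlib 3.10.9.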

Additional observations from a re-analysis of the deposited data

Results flagged for a closer look

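In 5 of 40 groups of 4 libraries looked at, the highest library lay far from the other 3 by the size of the gap; chance sets apart about 1 in 20 groups. The Aire-/- anti-PD1 library of CD8 spleen stood high for summed histone CPM of non-cycling cells (314) and for the thinned share of cells with histone RNA (45.0%). The Aire+/+ isotype library of CD45 tumor stood high in non-cycling cells (329). The Aire-/- anti-PD1 library of CD45 spleen stood high for the summed level of all cells (677) and for that of the H4 genes (172).

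The cycling difference was smaller in CD8 tumor than in CD8 spleen for 7 histone genes in the test of the difference itself: Hist1h1b (-2.34), Hist1h2ab (-3.39), Hist1h2ag (-1.74), Hist1h2bc (-1.20), Hist1h3c (-3.32), Hist1h3d (-1.72) and Hist1h4i (-0.88), as log2 values of tumor minus spleen. The fitted value of Hist1h3c rests on 2 UMIs in non-cycling CD8 spleen cells and is not exact. In the same test 8.77% of all 12400 genes had a smaller difference in tumor, a share not far below that of the histone genes. The direction turned with DNA replication genes as the gate, which passed far more spleen cells than Mki67 or Top2a. It also turned without cells above the 95th percentile of UMIs, and the cause was not tested.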

How the results depend on the processing

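Alternatives without the CD8-sort clusters of other cell types, without the 1% of cells with most histone UMIs, and with cell cycle gates on thinned cells were chosen after seeing the data. Leaving out the libraries of 1 condition at a time gave, as lowest to highest, 51 to 53 histone genes higher with cycling in CD8 tumor, 42 to 53 in CD8 spleen, 44 to 47 in CD45 tumor and 30 to 34 in CD45 spleen. It gave 3 to 11 for the difference between CD8 tumor and spleen, 26 to 43 for tissue in all CD8 cells, 2 to 24 in cycling and 19 to 21 in non-cycling CD8 cells, and 24 to 29 in the CD45 sort. Of the other alternatives, 29 of 34 counts for cycling, 28 of 35 for tissue, 3 of 9 for the difference between tissues, 18 of 24 shares, 21 of 22 levels per cell type and 1033 of 1084 values of named genes stayed within 1.5 times, within the spread or on the same side of the threshold. Of those 1084 values 17 lost and 30 gained a call and 4 changed direction, and of 520 values of named genes with 1 condition left out 23 lost and 8 gained a call. In each case below the cause was not tested.

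Genes higher with cycling fell to 23 in CD8 spleen and 0 in CD45 spleen (edgeR, 4 at an unadjusted p under 0.05) without cells above the 95th percentile of UMIs, to 23 and 19 with the replication gate, and to 13 in CD45 spleen with thinned cells. The replication gate passed many more spleen cells than Mki67 or Top2a did. Genes whose cycling difference differed between CD8 tumor and spleen were 12 without the gene filter, 4 with thinned cells, 11 without the deepest cells (10 of them in the opposite direction), 16 with at least 2 UMIs in the gate, 16 in the opposite direction with the replication gate and 18 without clusters of other cell types. For tissue in cycling CD8 cells the counts were 13, 2, 16, 25, 31 and 15 under the same settings, and 15 without the condition term. Lsm11 turned to -0.17 with cycling in CD8 tumor with thinned cells. Among non-cycling CD8 cells Pcna turned to -0.015 with the replication gate, and Asf1b to 0.68 with thinned cells and 0.30 with at least 2 UMIs in the gate.

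Some differences in share between conditions moved. For each tissue and sort the pair was the library with the highest and that with the lowest share, picked from these same values. Aire+/+ minus Aire-/- under isotype went from 8.28 to 4.47 points in CD8 tumor at 1000 UMIs. In CD45 tumor it went from 7.08 to 4.07 with at least 2 histone UMIs. Aire-/- minus Aire+/+ under anti-PD1 went from 7.68 to 5.02 in CD8 spleen at 1000 UMIs. In CD45 spleen, anti-PD1 minus isotype in Aire-/- went from 13.5 to 9.89 at 1000 UMIs, 9.97 at 4000 and 10.0 without the cell filter. These CD45 spleen values are within 1.5 times of 13.5 but were counted as moved. In non-cycling cells the tumor to spleen log2 ratio was 0.39 in the CD8 and -0.90 in the CD45 sort.

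Among log2 ratios between conditions, 27 of 64 held, 30 moved and 7 turned. In non-cycling cells, Aire-/- over Aire+/+ under isotype was -0.50 in CD8 tumor, -0.045 in CD8 spleen (turned) and -0.42 in CD45 tumor, and under anti-PD1 0.38 in CD8 spleen and 0.034 in CD45 tumor. Anti-PD1 over isotype was -0.30 in Aire+/+ and 0.081 in Aire-/- CD8 tumor, 0.36 (turned) in Aire-/- CD8 spleen, and -0.39 (turned) in Aire+/+ and 0.069 in Aire-/- CD45 tumor. With thinned cells, Aire-/- over Aire+/+ was -0.41 (isotype) and -0.10 (anti-PD1) in CD8 tumor, 0.30 and 0.45 in CD8 spleen, and under anti-PD1 0.034 in CD45 tumor and 0.42 in CD45 spleen. Anti-PD1 over isotype with thinned cells was -0.20 and 0.11 in Aire+/+ and Aire-/- CD8 tumor, -0.11 and 0.041 (turned) in CD8 spleen, -0.069 (turned) and 0.27 in CD45 tumor, and 0.47 in Aire-/- CD45 spleen.

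Without Hist1h1e, Aire-/- over Aire+/+ was -0.17 in CD8 tumor (anti-PD1), 0.94 in CD8 spleen (isotype) and 0.38 in CD45 spleen (anti-PD1), and anti-PD1 over isotype was -0.33 in Aire-/- CD8 spleen and 0.085 in Aire+/+ CD45 tumor. Without the 1% of cells with most histone UMIs, Aire-/- over Aire+/+ was -0.28 in CD8 tumor, 0.017 in CD8 spleen and -0.12 in CD45 spleen under isotype, and 0.41 in CD8 spleen under anti-PD1. Anti-PD1 over isotype was then -0.17 in Aire+/+ CD8 tumor, -0.10 in Aire+/+ and 0.29 (turned) in Aire-/- CD8 spleen, and -0.24 (turned) in Aire+/+ and 0.28 in Aire-/- CD45 tumor.

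Depth limits the rarest genes: those with 3 or fewer UMIs outside cycling cells have count ratios with wide intervals. Each condition had 1 library per tissue and sort from pooled mice, so the intervals between conditions hold counting error only and single mice were not resolved. How reads of near-identical gene copies were split was not known, the captured part of histone mRNA without a poly(A) tail was not measured, and free RNA and doublets were not removed.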
